A study of Pyrus pyrifolia with 6 samples.

Results

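Genes for CYP86 enzymes, a family of cytochrome P450 fatty acid hydroxylases, were described in skin of Cuiguan, a cultivar of the sand pear Pyrus pyrifolia whose fruit is semi-russeted, that is, partly covered by corky skin in place of a smooth cuticle. There are 4 such genes, chosen by name from the 42933 genes of the deposited table, 1 described as cytochrome P450 86A1 (LOC103963213), 2 as 86B1-like (LOC103943216 and LOC103945558) and 1 as 86A22 (LOC103963865). They were chosen with their levels in bagged and untreated skin already known, so their differences between these groups are given as values, with no test. The bagged group held 3 libraries from fruits that grew inside paper bags, white ones of a single layer from 20 days after full bloom and yellow-white ones of a double layer from 40 days after it. The untreated group held 3 libraries from fruits left unbagged. The trees stood in an orchard, all fruits were collected 95 days after full bloom, and skin RNA was sequenced. How many fruits or trees make up a replicate is not given in the labels.

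Plants cover their surfaces with lipid polyesters. Cutin forms the matrix of the cuticle over the epidermis, and suberin is laid down in the walls of cork cells such as those of russet. Both polymers are built from fatty acids that carry a hydroxyl group on their last carbon, and CYP86 enzymes put it there, in the endoplasmic reticulum, with electrons from a P450 reductase. In Arabidopsis, CYP86A1 acts on the common long-chain acids of root suberin and CYP86B1 on the very long-chain ones, while other CYP86A enzymes serve cutin. The name 86A22 comes from petunia, whose enzyme makes omega-hydroxy fatty acids for the lipids of the stigma. The pear gene is set here on the cutin side by the grouping chosen for this comparison, not by any measurement in pear. Its subfamily, 86A, also holds 86A1, so the subfamily alone does not place it there.

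The 4 genes did not behave alike. In bagged skin the 86A1 gene and one 86B1-like gene were about 9 times lower than in untreated skin, the other 86B1-like gene differed by less than the spread between its replicates, and the 86A22 gene was about 3 times higher. The suberin side was therefore split, with 1 of its 3 genes outside the pattern of the other two. In whole skin, fewer cells of a type and less RNA per cell cannot be told apart.

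The 86A1 gene LOC103963213 is listed on the minus strand of scaffold NW_008988284.1, from 195855 to 197654, in a genome build that the sources used here do not name. It had 29, 54 and 81 counts in bagged libraries 1 to 3, against 483, 708 and 362 counts in untreated libraries 1 to 3. Every bagged library lay far below every untreated one, with no overlap. As CPM, counts scaled to a common library size, the level was 3.03 ± 1.24 in bagged and 28.8 ± 6.83 in untreated skin (SD, n = 3 each), which is 9.51 times less in bagged skin. The fitted log2 fold change of bagged over untreated was -3.24 ± 0.31 (SE). The 95% exact Poisson intervals of the bagged counts, which cover counting error only, were 19.4 to 41.6 for library 1, 40.6 to 70.5 for library 2 and 64.3 to 101 for library 3. Those of libraries 1 and 3 do not meet, while each overlaps that of library 2.

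The first 86B1-like gene, LOC103943216, is listed on the minus strand of scaffold NW_008988058.1, from 1278421 to 1281804. It had 43, 58 and 149 counts in bagged libraries 1 to 3, against 705, 997 and 491 counts in untreated libraries 1 to 3. The groups did not overlap, although bagged library 3 stood well above the other two of its group. The level was 4.57 ± 2.81 CPM in bagged and 40.7 ± 10.2 CPM in untreated skin (SD, n = 3 each), 8.89 times less in bagged skin, with a log2 fold change of -3.14 ± 0.40 (SE). Bagged library 3 set part of this value, and the log2 fold change was -3.77 without it.

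The second 86B1-like gene, LOC103945558, is listed on the minus strand of scaffold NW_008988072.1, from 874503 to 876831. It had 1075, 1039 and 1007 counts in bagged libraries 1 to 3, against 826, 1254 and 845 counts in untreated libraries 1 to 3. The groups overlapped, and once scaled the highest level was in bagged library 1 (65.1 CPM) and the lowest in untreated library 1 (47.8 CPM). The level was 59.1 ± 6.21 CPM in bagged and 54.7 ± 8.24 CPM in untreated skin (SD, n = 3 each), a log2 fold change of 0.11 ± 0.13 (SE). This gene also varied least among replicates, with a coefficient of variation of 10.5% in bagged and 15.1% in untreated skin, against 61.5% in bagged and 24.97% in untreated skin for LOC103943216. The labels do not say how reads shared by similar genes were counted, which leaves the split of reads between the 86B1-like pair uncertain to that extent.

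The 86A22 gene LOC103963865 is listed on the minus strand of scaffold NW_008988294.1, from 190496 to 192897. It had 1690, 2464 and 4046 counts in bagged libraries 1 to 3, against 949, 612 and 1000 counts in untreated libraries 1 to 3. Every bagged library was above every untreated one. The level was 152 ± 55.5 CPM in bagged and 49.3 ± 16.2 CPM in untreated skin (SD, n = 3 each), 3.07 times more in bagged skin, with a log2 fold change of 1.62 ± 0.32 (SE). The authors' deposited table lists log2 fold changes of 1.63 for this gene, 0.12 for LOC103945558, -3.14 for LOC103943216 and -3.24 for LOC103963213.

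In all, 3 of the 4 genes had CPM ranges that did not overlap between groups. Among all 25139 genes tested, 21.7% had ranges apart, 10.7% with bagged skin higher and 11% with bagged skin lower. Since the genes were picked for this contrast, nothing is read from that count. None of the 4 listed spans overlaps another gene of the table.

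**Figure D1:**
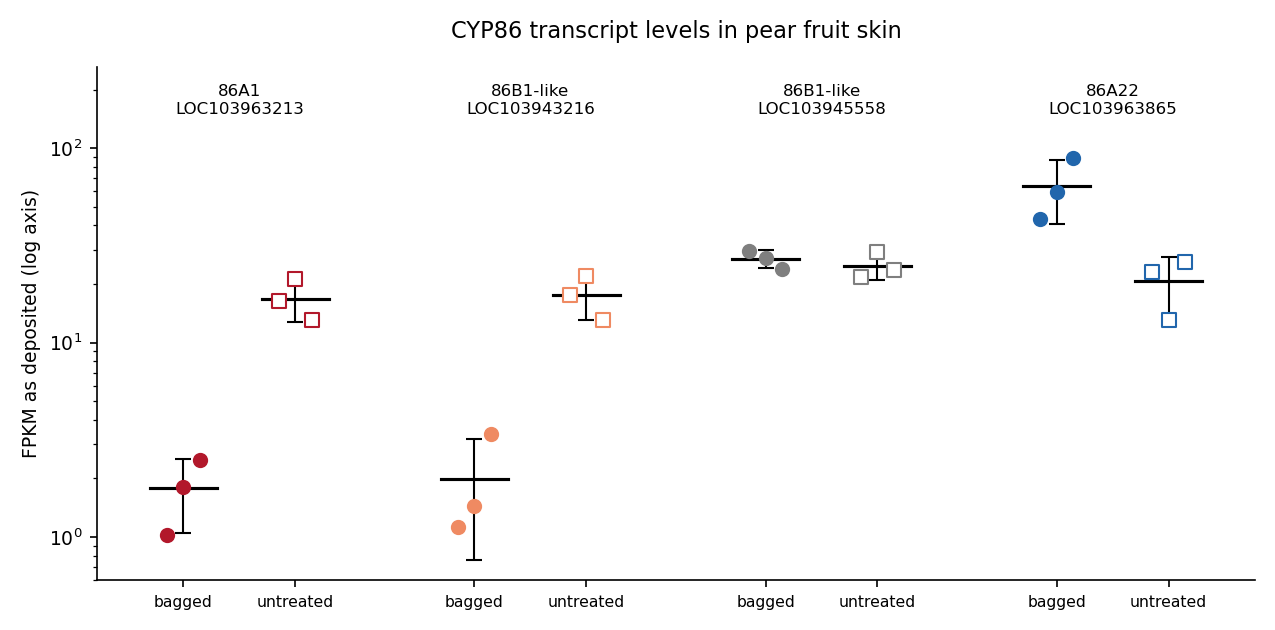
FPKM as deposited (log axis) of the 4 CYP86 genes in each library, with bagged libraries as filled circles, untreated ones as open squares, and the mean and SD (n = 3) in black. The 86A1 gene and the 86B1-like gene LOC103943216 sit between 1.03 and 3.37 FPKM in bagged skin, while LOC103945558 lies between 21.7 and 29.6 FPKM in all libraries and the 86A22 gene between 43.1 and 89.2 FPKM in bagged ones.

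Levels of different genes can be compared only per length, for which the authors' FPKM was used. In bagged skin the order was 86A22 at 63.9 ± 23.4 FPKM, then LOC103945558 at 26.9 ± 2.82 FPKM, then LOC103943216 at 1.98 ± 1.22 FPKM and 86A1 at 1.78 ± 0.73 FPKM (SD, n = 3 each). The last 2 changed places between libraries and do not differ beyond their spread. In untreated skin the order was LOC103945558 at 24.8 ± 3.81 FPKM, 86A22 at 20.7 ± 6.72 FPKM, LOC103943216 at 17.5 ± 4.44 FPKM and 86A1 at 16.9 ± 4.06 FPKM. There no neighbours in the order differ beyond their spread, and the 86A22 gene was the highest of the 4 in untreated libraries 1 and 3 but the lowest in untreated library 2.

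The 86A1 gene and LOC103943216 stood at nearly the same level per length in every library. Their FPKM ratio was 0.914, 1.26 and 0.737 in bagged libraries 1 to 3, against 0.929, 0.963 and 0.9997 in untreated libraries 1 to 3. The ratio stayed near 1 while both levels differed about 9 times between groups, and it was more scattered in bagged skin, where both genes have few reads. The ratio of 86A22 to 86A1 was 41.9, 32.8 and 35.9 in bagged libraries 1 to 3, against 1.41, 0.621 and 1.99 in untreated libraries 1 to 3. These 2 genes were thus within about a factor of 2 of each other in untreated skin and far apart in bagged skin.

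One more gene of the family, LOC103957382, is described as cytochrome P450 86A8, whose Arabidopsis namesake LACERATA is a fatty acid omega-hydroxylase of the epidermis. It had 2, 2 and 3 counts in bagged libraries 1 to 3, against 9, 11 and 3 counts in untreated libraries 1 to 3, and was below the filter on low counts. No further gene of the table is described as cytochrome P450 86. Summed over all 5 genes, CYP86 transcripts amounted to 74.9, 90.1 and 119 FPKM in bagged libraries 1 to 3, against 79.0, 85.6 and 75.8 FPKM in untreated libraries 1 to 3. The ranges of the sum overlapped, while its makeup differed. The 86A22 gene held 66.2 ± 8.69% of the sum in bagged and 26.3 ± 9.77% in untreated skin (SD, n = 3 each). The 86A1 gene held 1.83 ± 0.39% in bagged and 20.9 ± 3.75% in untreated skin, and LOC103943216 held 1.98 ± 0.74% in bagged and 21.7 ± 4.24% in untreated skin. The share of LOC103945558 was 30.0 ± 9.70% in bagged and 30.9 ± 3.26% in untreated skin, although it ran from 20.2% to 39.6% among the bagged libraries as the 86A22 level varied.

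**Figure D2:**
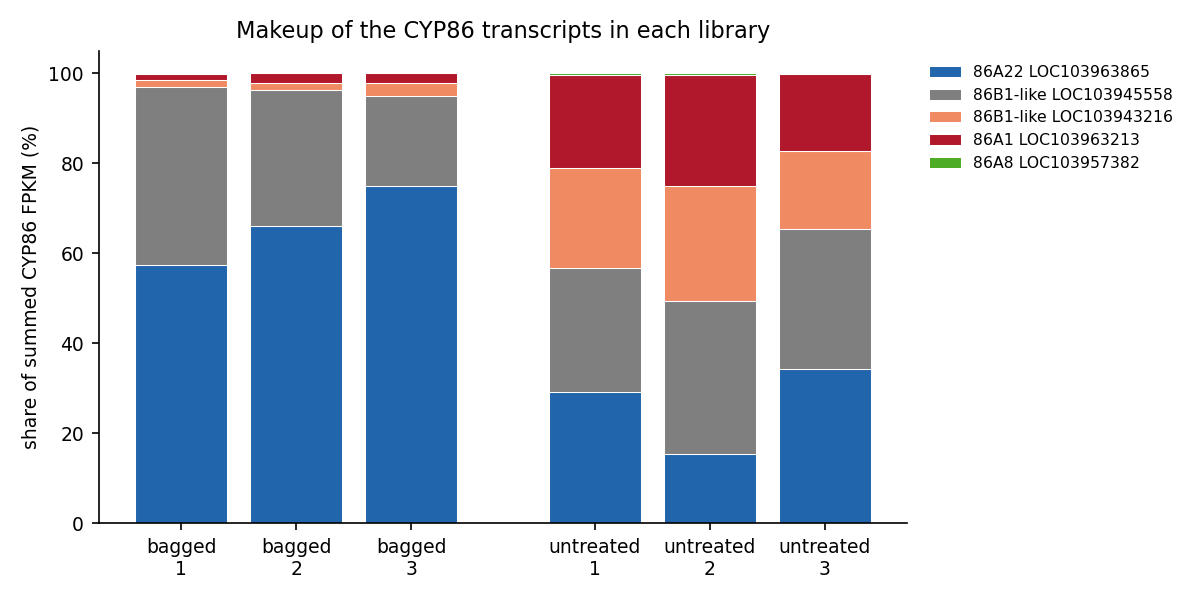
Share (%) of the summed FPKM of the 5 genes described as cytochrome P450 86 that each gene held, 1 bar per library, bagged libraries left of untreated ones. The 86A22 gene (blue) fills 57.5% to 74.9% of each bagged bar and 15.3% to 34.2% of each untreated bar, and the 86A1 gene (red) with LOC103943216 (orange) nearly vanishes in bagged skin.

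The suberin side as a whole (86A1 and both 86B1-like genes) summed to 31.8, 30.5 and 29.9 FPKM in bagged libraries 1 to 3, against 55.7, 72.2 and 49.8 FPKM in untreated libraries 1 to 3. The log2 ratio of this sum to the 86A22 level was -0.44, -0.97 and -1.58 in bagged libraries 1 to 3, against 1.27, 2.46 and 0.94 in untreated libraries 1 to 3. The ratio thus favoured 86A22 in every bagged library and the suberin side in every untreated one. Most of what remained on the suberin side in bagged skin was LOC103945558. With only 86A1 and LOC103943216 in the sum, the log2 ratio averaged -4.15 ± 0.20 in bagged and 0.76 ± 0.87 in untreated skin (SD, n = 3 each). The mean log2 fold change of the 3 suberin-side genes minus that of 86A22 was -3.71, and it lay between -4.03 and -3.29 with any 1 library left out.

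Within groups, the libraries also fell in a recurring order. Among bagged libraries, 86A1, LOC103943216 and 86A22 were all highest in library 3 and lowest in library 1 by CPM. Among untreated libraries, 86A1 and LOC103943216 were highest in library 2 and lowest in library 3, whereas 86A22 was lowest in library 2 and highest in library 3. These 2 suberin-side genes therefore ran in the opposite order to 86A22 among untreated libraries and in the same order among bagged ones, with only 3 libraries in each group. LOC103945558 ran in the reverse order among bagged libraries, highest in library 1 and lowest in library 3. Library totals were 16735371, 17905890 and 19546285 counts in bagged libraries 1 to 3, against 17136285, 19278100 and 15764049 counts in untreated libraries 1 to 3. The scaled levels of 86A1 and LOC103943216 thus ran in the order of the totals in both groups, and those of 86A22 did so among bagged libraries and ran in reverse among untreated ones. Whether depth has a part in these orders was not tested. Untreated library 3 stood nearer to the bagged ones on principal component 1 (24.0, against 52.0 and 59.8 for the other untreated libraries and -50.3 to -40.1 for bagged ones), and without it the log2 fold changes were -3.39 for 86A1, -3.31 for LOC103943216, 0.08 for LOC103945558 and 1.82 for 86A22.

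Among genes that supply electrons to microsomal P450 enzymes, none was called. The table holds 1 gene described as NADPH--cytochrome P450 reductase, LOC103964936, the main electron donor, with 2888, 2760 and 2997 counts in bagged libraries 1 to 3, against 3081, 3562 and 2772 counts in untreated libraries 1 to 3. Its log2 fold change was -0.12 ± 0.08 (SE), with an adjusted p of 0.515 (edgeR quasi-likelihood test, Benjamini-Hochberg over all 25139 genes). Of 10 tested cytochrome b5 genes and 5 tested cytochrome b5 reductase genes, none passed the threshold of 0.05, and their log2 fold changes lay between -1.01 and 0.37. The name pattern for this list also took in 2 omega-3 fatty acid desaturases, and 1 of them, LOC103938921, was the only called gene of the 18 tested. It rose by 1.84 ± 0.34 on the log2 scale (edgeR adjusted p = 0.0358), a call that was lost when any library but untreated replicate 3 was left out (adjusted p up to 0.11). Over the list, 1 gene was higher and 1 lower at an unadjusted p below 0.05, and DESeq2 and limma-voom each called 1 higher and none lower. Among all genes, 2.67% were called, 0.971% higher and 1.69% lower.

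Genes listed by their descriptions as partners of 86A1 and 86B1 in making suberin were called lower in bagged skin in most cases tested. Of 49 genes whose descriptions matched the list, 29 passed the filter on low counts, and of these 17 fell, 1 rose and 11 did not pass the threshold, beside 1.69% and 0.971% of all genes. The other 20 were below the filter, 8 of them with no count in any library, and the matches included 2 genes for a 1-acyl-sn-glycerol-3-phosphate acyltransferase, which belong to other lipids and were not tested. The median log2 fold change was -2.72 over the 29 genes and -0.01 over all genes tested. These genes, like the CYP86 genes, were listed with earlier results of these data known. Some passed the filter only through the untreated group, such as LOC103934278 with bagged counts of 1, 1 and 7. The others among the 17 that fell, with their bagged counts, were LOC103960041 (4, 7 and 19), LOC103939715 (9, 15 and 18), LOC103930480 (8, 7 and 31) and LOC103932334 (10, 2 and 15). For such genes a call could only be lower. The count of genes that fell was 10 without bagged replicate 1 and 7 without bagged replicate 2, and the 1 that rose lost its call without bagged replicate 2 or untreated replicate 1 or 2.

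By role, the 2 genes for glycerol-3-phosphate acyltransferase 5, which joins the hydroxylated acids to glycerol, both fell (log2 fold changes -2.81 and -2.80). Of 6 tested genes for omega-hydroxypalmitate O-feruloyl transferase, which links omega-hydroxy acids to ferulate, 4 fell. Of 7 tested transporters of the ABCG family, some members of which are known to export suberin precursors, 6 fell. These were matched by member number, and a role in suberin was not measured for them. Among those that fell, LOC103934278 and LOC103932334 passed the filter only through the untreated group. None of 3 elongase (3-ketoacyl-CoA synthase) genes was called by edgeR, with log2 fold changes from -0.12 to 0.70. Over the whole list, 2 genes were higher at an unadjusted p below 0.05 and 2 were called higher by DESeq2, against 1 by limma-voom. Of 4 tested fatty acyl-CoA reductase genes, which make the fatty alcohols of suberin and wax, 1 fell and 1 rose. Of 4 tested MYB39-like regulators 3 fell, and of 3 tested MYB36-like ones 1 fell. None of the 4 MYB39-like genes would have passed the filter on its bagged libraries alone. A call among them could only be lower, and nothing is read from their count. MYB39 is known in Arabidopsis as a regulator of endodermal suberin, and MYB36 there as one of the Casparian strip.

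The called suberin-list genes with the largest falls were a pair of MYB39-like genes and a transporter. LOC103960041 was at 0.546 ± 0.396 CPM in bagged and 7.30 ± 2.13 CPM in untreated skin (SD, n = 3 each), a log2 fold change of -3.70 ± 0.48 (edgeR adjusted p = 0.0117, and 0.0516 without bagged replicate 2). LOC103939715 was at 0.782 ± 0.209 CPM in bagged and 9.88 ± 2.92 CPM in untreated skin, and its fall (-3.64 ± 0.32, edgeR adjusted p = 0.0058) stayed called with each library left out in turn. Its bagged counts of 9, 15 and 18 alone would not have passed the filter, so its call could only be lower. The ABC transporter G family member 10-like gene LOC103934278, with 1, 1 and 7 counts in bagged and 19, 49 and 27 counts in untreated libraries, fell by 3.34 ± 0.66 on the log2 scale (edgeR adjusted p = 0.0456). That call was lost with limma-voom (0.0501) and when any library but bagged replicate 3 was left out (up to 0.148). The reductase gene that rose, LOC103954216, was at 104 ± 19.2 CPM in bagged and 54.5 ± 2.73 CPM in untreated skin, a log2 fold change of 0.93 ± 0.14 (edgeR adjusted p = 0.0175).

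Of the genes listed by their descriptions as partners of the cutin hydroxylases, a few passed the test, in both directions. Of 42 matching genes 22 were tested, of which 3 rose, 1 fell and 18 did not pass, beside 0.971% higher and 1.69% lower among all genes, with a median log2 fold change of 0.50 beside -0.01 over all genes. At an unadjusted p below 0.05 in edgeR, 12 were higher and 2 lower. The largest rise was that of the ABC transporter G family member 11-like gene LOC103930284, which missed the threshold (3.03 ± 0.62, edgeR adjusted p = 0.0514). The count that rose depended on the tool and on single libraries. It was 9 with DESeq2 and 4 with limma-voom. It was 1 without bagged replicate 1 or untreated replicate 2, and 0 without bagged replicate 2 or 3 or untreated replicate 1. A second gene fell without bagged replicate 2.

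The cutin-list genes that rose were a HOTHEAD gene, a DCR-like gene and a long chain acyl-CoA synthetase gene. HOTHEAD, known in Arabidopsis as an oxidoreductase that takes omega-hydroxy acids toward dicarboxylic acids, was at 49.9 ± 12.4 CPM in bagged and 16.9 ± 4.93 CPM in untreated skin (LOC103966469, log2 fold change 1.57 ± 0.25, edgeR adjusted p = 0.0231). The DCR-like acyltransferase gene LOC103932242 was at 66.6 ± 16.4 CPM in bagged and 23.5 ± 6.41 CPM in untreated skin (1.51 ± 0.25, edgeR adjusted p = 0.0242). Acyl-CoA synthetases activate fatty acids for these pathways, and LOC103953111 was at 113 ± 10.01 CPM in bagged and 72.2 ± 7.94 CPM in untreated skin (0.64 ± 0.11, edgeR adjusted p = 0.0268). None of these 3 calls held in every left-out fit. The HOTHEAD call was lost without bagged replicate 1, 2 or 3 or untreated replicate 1 (adjusted p up to 0.0668), the DCR-like call without bagged replicate 2 or 3 or untreated replicate 1 or 2 (up to 0.0791), and the synthetase call when any library but untreated replicate 3 was left out (up to 0.0917).

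The cutin-list gene that fell, LOC103962994, is described as ABC transporter G family member 32-like, a type of cuticle lipid exporter. It was at 13.3 ± 6.09 CPM in bagged and 106.8 ± 29.9 CPM in untreated skin (-2.998 ± 0.33, edgeR adjusted p = 0.00821), and stayed called with each library left out in turn. Its description puts it on the cutin list, and it moved in the direction of 86A1, not of 86A22. The P450 gene of the list that passed the filter, LOC103929512 (77A3-like, of a subfamily that adds mid-chain hydroxyl groups in cutin), did not pass the threshold (0.46 ± 0.12, edgeR adjusted p = 0.114).

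Other P450 families with members that act on fatty acids were read in the same way. None of 11 tested genes of the CYP94 and CYP704 families passed the edgeR threshold, which is near the 2.67% called among all genes, and 2 were higher and 1 lower at an unadjusted p below 0.05. DESeq2 called 2 higher and none lower, and limma-voom called none. Their log2 fold changes ran from -0.74 to 3.06, with a median of -0.09. The highest was that of LOC103962896, with untreated counts of 9, 0 and 3, which passed the filter only through the bagged group.

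**Figure D3:**
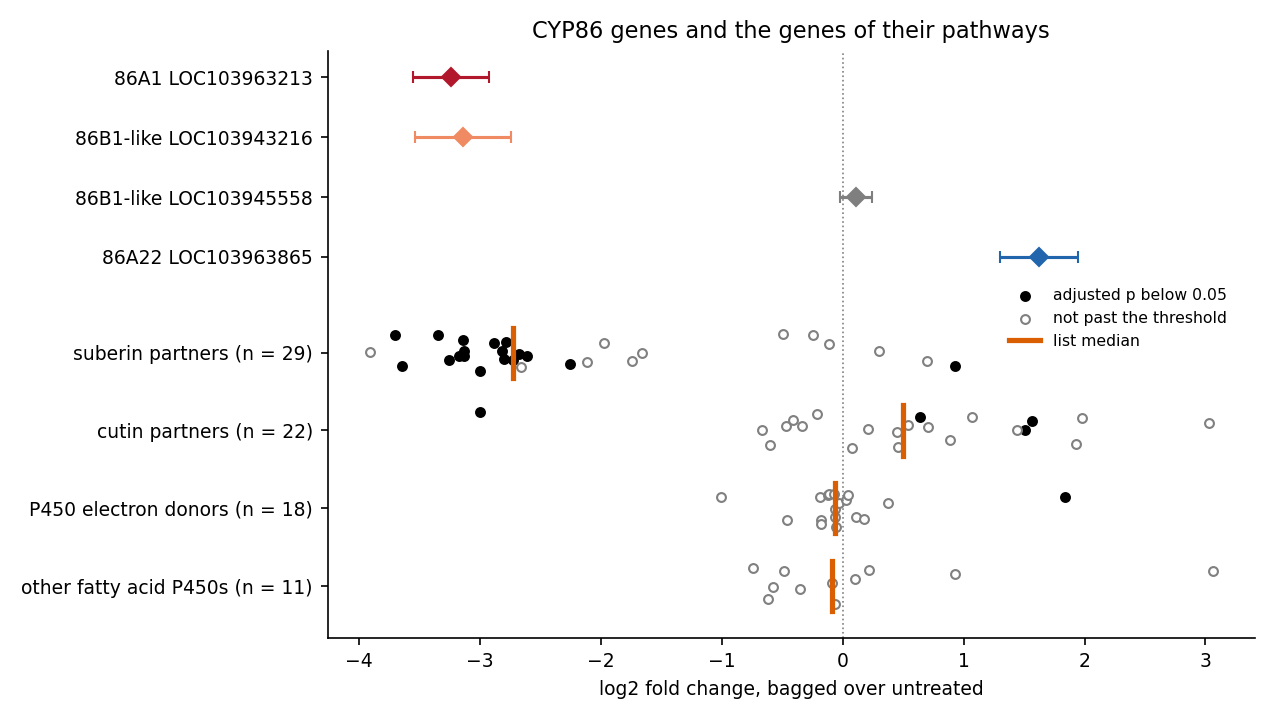
Log2 fold change of bagged over untreated skin for the 4 CYP86 genes (diamonds with SE, no test) and for each tested gene of 4 lists, with called genes in black, others open and the list median in orange. The 86A1 gene and LOC103943216 lie among the suberin partners, whose median is -2.72. The 86A22 gene, at 1.62, lies above the median of the cutin partners, 0.50, whose values run from -2.998 to 3.03.

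For each CYP86 gene, the genes most like it were sought among the 14708 described genes that reached a mean log2 CPM of 2. The measure was the root mean square difference of log2 CPM over the 6 libraries, each gene centred on its own mean. Since this picks genes by the same contrast, no test is given for them. The 3 nearest to 86A1 were the omega-hydroxypalmitate O-feruloyl transferase-like gene LOC103966555 (0.057 log2 units), the phosphatidylinositol/phosphatidylcholine transfer protein SFH3-like gene LOC103967124 (0.08) and the ABC transporter G family member 20-like gene LOC103933813 (0.106). The 3 nearest to LOC103943216 were another feruloyl transferase-like gene, LOC103938506 (0.107), the GDSL esterase/lipase At2g23540-like gene LOC103955979 (0.114) and a further ABC transporter G family member 20-like gene, LOC103932967 (0.123). The 86A1 gene and LOC103943216 differed from each other by 0.223, which placed LOC103943216 at rank 21 by nearness to 86A1 among the tested genes.

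The 86A22 gene had other companions. The nearest were the omega-3 desaturase gene LOC103938921 (0.106), the non-specific lipid-transfer protein gene LOC103938613 (0.117) and the HOTHEAD gene LOC103966469 (0.121). Like 86A22, each of them was lowest in untreated library 2 and highest in bagged library 3. LOC103945558 was nearest to genes that differ little between any libraries, namely the G patch domain-containing TGH-like gene LOC103938332 (0.04), the autophagy-related 13a-like gene LOC103943326 (0.044) and the U-box domain-containing 44-like gene LOC103927201 (0.045). The distance between the 86B1-like pair was 1.78, close to the 1.75 between LOC103945558 and 86A1.

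**Figure D4:**
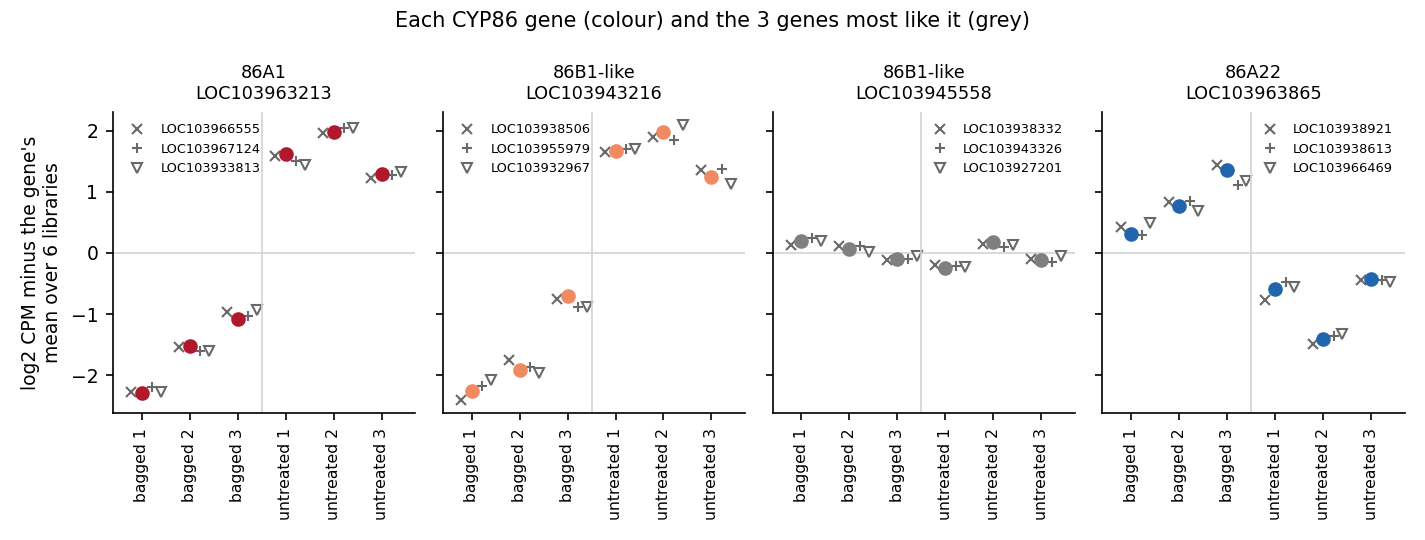
Log2 CPM minus the gene's mean over 6 libraries, for each CYP86 gene (coloured circles) and the 3 genes most like it (grey marks), bagged libraries left of untreated ones. The 86A1 gene runs from -2.30 in bagged library 1 to 1.98 in untreated library 2, and the 86A22 gene from 1.35 in bagged library 3 to -1.41 in untreated library 2.

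The genes beside the CYP86 genes on their scaffolds were read for the same contrast. Of the 16 nearest tested neighbours, 2 on each side of each gene, edgeR called 1, beside 2.67% of all genes, and nothing is read from so small a count. The neighbours of 86A1 began 2.07 and 2.23 kb away (LOC103963214 and LOC103963271), and their log2 fold changes were -0.22 ± 0.26 and 0.01 ± 0.26 (SE). The nearest neighbour of LOC103943216, LOC103943215, lay 8.22 kb away at 0.24 ± 0.43, and that of LOC103945558, LOC103945557, lay 8.07 kb away at -0.08 ± 0.31. The called neighbour, LOC103963862, a TIC 32-like short-chain dehydrogenase gene 46.6 kb from 86A22, fell by 0.81 ± 0.08 (edgeR adjusted p = 0.00613, at most 0.034 with 1 library left out), opposite to 86A22. The BTB/POZ domain gene LOC103963864, 8.87 kb from 86A22, had a log2 fold change of 1.299 ± 0.29 and missed the threshold (edgeR adjusted p = 0.0628, 0.0448 without untreated replicate 3, and 0.000492 with DESeq2).

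**Figure D5:**
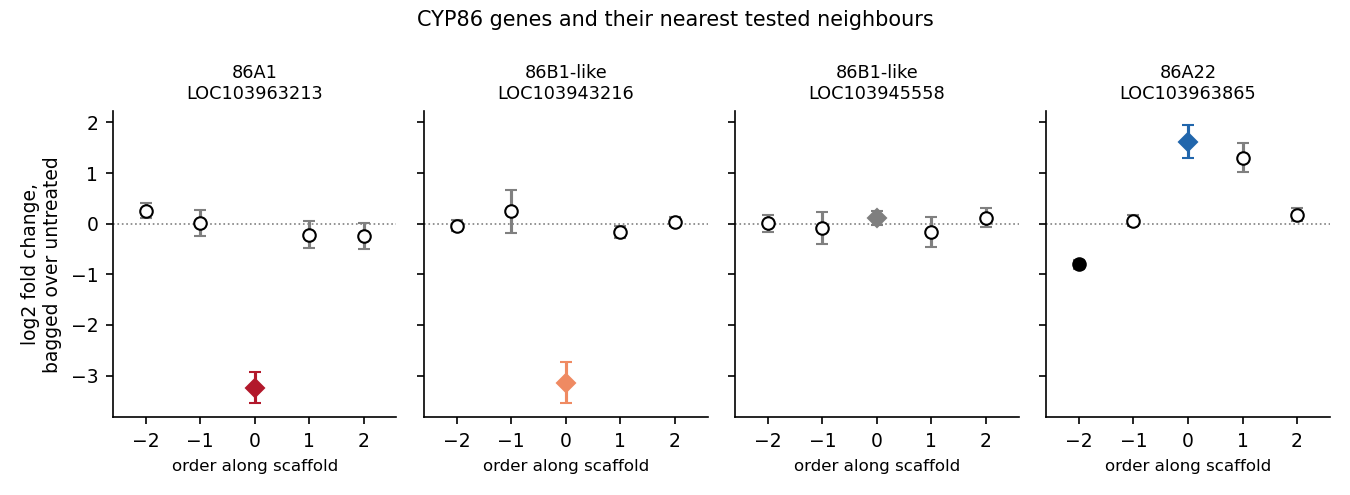
Log2 fold change (bagged over untreated, with SE) of each CYP86 gene (coloured diamond) and of the 2 nearest tested genes on either side of it, by their order along the scaffold. Open circles did not pass the threshold, and the 1 filled circle is LOC103963862 at -0.81.

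Markers of the skin and of other tissue were read beside these values. Of 17 genes matching epidermal markers 11 were tested, 2 rose (both for 3-ketoacyl-CoA synthase 6, an enzyme of wax synthesis) and none fell, beside 0.971% higher and 1.69% lower among all genes. DESeq2 called 3 of them higher and limma-voom 2, and the summed level was 124 to 176 CPM in bagged and 106 to 127 CPM in untreated skin. At an unadjusted p below 0.05 in edgeR, 6 were higher and 1 lower. The tested ANTHOCYANINLESS 2 genes had log2 fold changes of -0.04, -0.01 and 0.54, and the tested MERISTEM L1-like gene 0.29. Those of the tested ECERIFERUM 1-like genes ran from -2.23 to 1.36. Of 3 MERISTEM L1-like genes 2 had no count in any library. Xylem and stone cell markers were near 0, with 21 of 23 below the filter and 8 at 0 in all libraries. Their sums were 0.859 to 1.45 CPM in bagged and 4.71 to 8.39 CPM in untreated skin. The 2 tested laccase-4-like genes, LOC103929799 and LOC103938588, both fell (edgeR adjusted p = 0.0242 and 0.0151), beside 1.69% of all genes. Their bagged counts were 2, 0 and 3 for LOC103929799 and 2, 1 and 8 for LOC103938588. Both passed the filter only through the untreated group, so a call could only be lower, and nothing is read from this count. Of 8 tested phloem markers none was called by edgeR, 1 was higher and 1 lower at an unadjusted p below 0.05, DESeq2 called 1 lower and limma-voom none, with sums of 54.1 to 60.6 CPM in bagged and 49.6 to 118 CPM in untreated skin. One of them, the SIEVE ELEMENT OCCLUSION B-like gene LOC103938158, had 72, 33 and 42 counts in bagged and 1188, 72 and 445 in untreated libraries 1 to 3. Of 27 tested genes of photosynthetic cells none was called by edgeR (none higher and 11 lower at an unadjusted p below 0.05, with 2 lower by DESeq2 and none by limma-voom), with sums of 1503 to 2275 CPM in bagged and 1862 to 3285 CPM in untreated skin. The part of these tissues in the CYP86 values was not tested.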

How the data were processed

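Per the file headers, the authors' table holds raw read counts and FPKM for each gene in each library. Its log2 fold changes, which the authors computed per the file headers, are quoted only where named. Its scaled signal (group means) and its p-values and adjusted p-values, also deposited by the authors, were not used. HISAT2 appears in the submitters' processing notes. Counter, strand setting, build and annotation are not given there, and positions are as listed in the table. The p-values measure only the spread between these samples, which may be technical.

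Tests were run on the counts in edgeR 4.0.16 (R 4.3.3). After filterByExpr (at least 10 counts, total 15), 25139 genes remained, with TMM scaling and no covariate. A gene was called when its Benjamini-Hochberg adjusted p in the quasi-likelihood test was below 0.05, and its SE is the size of its log2 fold change over the root of F. The prior count in log2 CPM was 2. The procedure was tested on simulated data.

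The CYP86 genes and all lists were chosen with earlier results of these data known. Named genes were the CYP86 genes, their tested neighbours, the genes most like them, and up to 3 called genes per direction and list; any other was named after its values were seen. Replicates differed by more than counting noise (chi-square over its degrees of freedom 11.7 to 19.4). Alternatives were other scalings and filters, DESeq2 1.42.0, limma-voom (limma 3.58.1), limma on log2(FPKM + 1) or log2(FPKM + 0.1), where an FPKM of 1 had to be reached by 3 libraries, a replicate block, and leaving out each library. A planned comparison of protein and promoter sequences was not run.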

Additional observations from a re-analysis of the deposited data

How the results depend on the processing

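The log2 fold changes of LOC103945558 and LOC103963865 and the suberin-side minus cutin-side difference stayed within 1 SD of their replicates under all 16 alternatives. That of LOC103963213 was -2.69 on log2(FPKM + 1), a scale that understates the change of low genes, and ran from -3.56 to -2.97 with 1 library left out. That of LOC103943216 was -2.68 on the same scale and ran from -3.77 (without bagged replicate 3) to -2.86 with 1 library left out. Genes called among all tested were 670, 1501 with DESeq2, and 205 to 692 with 1 library left out (205, 248 and 420 without bagged replicate 1, 2 or 3, and 306 and 292 without untreated replicate 1 or 2). Suberin partners that fell ran from 7 to 17 with 1 library left out and were 20 with DESeq2, and those that rose ran from 0 to 1 and were 2 with DESeq2. Cutin partners that rose ran from 0 to 4, and were 5 with no low-count filter, 9 with DESeq2 and 7 with the replicate block. Those that fell ran from 1 to 2 and were 2 by library size alone, with no filter and with DESeq2. Called electron donors ran from 0 to 1, and 2 other fatty acid P450 genes were called with DESeq2. The cause of these differences was not tested, although leaving out a library leaves fewer samples. Same-numbered libraries did not pair (correlations of deviations -0.04, 0.08 and 0.06). The block gave 728 calls, 358 higher and 370 lower, against 244 and 426 without it. With it, 14 suberin partners, 1 phloem marker and 1 of the 2 laccase-4-like genes were called lower, and LOC103934278 lost its call (edgeR adjusted p = 0.0562). Low counts limit LOC103957382 and the bagged levels of LOC103963213 and LOC103943216. LOC103957382 was below the main filter, and DESeq2 and limma-voom used the same genes, so they could not call it. With no low-count filter LOC103957382 was not called.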
